A study of Mus musculus with 16 samples.

Results

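The 9 genes described here encode enzymes of the methionine cycle and of transsulfuration: Mat1a, Mat2a, Gnmt, Pemt, Ahcy, Bhmt, Mtr, Cbs and Cth. They were picked by name, as a pathway, from the 24411 gene symbols counted in each library, and all 9 passed the filter on low counts that left 12901 genes for testing. Polyadenylated RNA was sequenced from mouse liver in 16 libraries, 4 per group. EtOH+MBV mice were on an ethanol diet and received matrix-bound nanovesicles (MBV), small vesicles held in extracellular matrix. EtOH mice were on the same diet, which followed the NIAAA protocol of chronic drinking with a binge, and received vehicle. PF+MBV mice were pair-fed and received MBV, and PF mice were pair-fed and received vehicle. The labels give no strain, age, sex, dose or MBV source, and nothing in them says whether each replicate is a mouse of its own. P-values therefore measure only the spread between these samples, which may be technical.

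Methionine adenosyltransferases make S-adenosylmethionine (SAM), the cell's methyl donor, from methionine and ATP. Mat1a encodes the enzyme typical of adult hepatocytes, and Mat2a encodes the catalytic chain of the form used in most other cells and in growing or dedifferentiated liver. Methyltransferases turn SAM into S-adenosylhomocysteine (SAH): Gnmt puts the methyl group on glycine and so disposes of surplus SAM, and Pemt puts it on phosphatidylethanolamine to make phosphatidylcholine. Ahcy splits SAH into adenosine and homocysteine. Homocysteine is then either returned to methionine by Bhmt, with betaine as donor, or by Mtr, with methylated folate and vitamin B12, or passed on by Cbs and Cth to cysteine. Loss of hepatic SAM and a block in remethylation are long-standing themes in research on alcohol and the liver.

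In the GRCm38 (mm10) annotation, Mat1a lies at chr14:41105035-41124412 on the plus strand, and the other 8 genes lie on minus strands. Mat2a lies at chr6:72432799-72439558, Gnmt at chr17:46725664-46729168, Pemt at chr11:59970614-60046489 and Ahcy at chr2:155059310-155074497. Bhmt lies at chr13:93616675-93637961, Mtr at chr13:12182712-12258113, Cbs at chr17:31608894-31637238 and Cth at chr3:157894248-157925077. Reads over all annotated exons of a gene were counted together, so isoforms are not told apart.

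RefSeq promoter windows of GRCm38.p6 were matched for 7 of the 9 genes. The 250 bases before the start are printed for Mat2a (chr6:72439557-72439806, minus strand) and for Mtr (chr13:12258114-12258363, minus strand). Both genes passed the test in EtOH+MBV against PF+MBV, in opposite directions, and Mtr did not pass in EtOH against PF. Mat1a also passed in EtOH+MBV against PF+MBV, but no window was matched for it. Capitals mark a TATA box match, and none of the motifs searched was found in the Mtr window.

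Mat2a: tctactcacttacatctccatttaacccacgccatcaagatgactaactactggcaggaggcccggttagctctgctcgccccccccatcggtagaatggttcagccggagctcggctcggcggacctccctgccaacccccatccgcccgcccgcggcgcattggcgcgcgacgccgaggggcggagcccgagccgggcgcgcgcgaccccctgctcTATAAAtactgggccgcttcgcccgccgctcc

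Mtr: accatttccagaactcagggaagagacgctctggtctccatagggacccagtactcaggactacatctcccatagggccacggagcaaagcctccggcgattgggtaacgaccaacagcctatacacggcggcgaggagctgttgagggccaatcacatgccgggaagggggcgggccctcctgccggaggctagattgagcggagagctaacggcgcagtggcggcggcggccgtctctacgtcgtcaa

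The TATA box match (TATAAA) in the Mat2a window began at -32, counted from the RefSeq start. Both strands of the windows, each 300 bases long including the first bases of the gene, were searched for 4 motifs. TATAAA was held by 13.6% of 32851 mouse promoter windows. The E-box CACGTG was held by 7.15% of all windows and by the Cbs window, at -229. The antioxidant response element core TGACNNNGC was held by 12.4% of windows and the C/EBP-ATF element core TGATGNAA by 3.97%, and neither was found in a window of these genes. No match overlapped another. A match of letters is a description and shows no binding.

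Counts in genes came to 15.27 M to 20.49 M a library, TMM scaling factors were 0.863 to 1.269, and 15021 to 15856 genes per library had at least 1 count. Of the libraries, 2 stood apart. EtOH 1 lay at -74.2 on the second principal component, against -17.8 to 11.6 for the other EtOH libraries, and EtOH+MBV 1 lay at -0.3 on the first, against 41.2 to 49.6 for the other EtOH+MBV libraries. In EtOH 1 the summed level of 8 pericentral hepatocyte markers was 2644 CPM (counts scaled to a common library size by TMM), against 9166 to 11090 in the other EtOH libraries. Its 6 cycling-cell markers summed to 113.8 CPM against 16.45 to 21.76, and its 8 monocyte and macrophage markers to 147.9 CPM against 45.53 to 59.33. Values without these libraries are given beside the results they moved, or as ranges in the closing section. The labelled tissue was borne out by its defining markers, with Alb at 62530 to 98070 CPM in every library. In whole liver, fewer cells of a type and less RNA per cell cannot be told apart.

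Levels were divided by the length of all annotated exons of a gene, and the order of the genes depends on that choice. For Bhmt this length was 5758 bases, against 2490 in its longest coding transcript, and for Mat1a 3468 in both. The shorter length would raise Bhmt relative to Mat1a. By exonic length, Mat1a was the most abundant of the genes in 3 of the 4 groups, at 3554 ± 645 CPM per kb in EtOH+MBV, 3102 ± 1410 in EtOH and 2078 ± 697 in PF (SD, n = 4 each). In PF+MBV it stood at 1240 ± 199 CPM per kb, below Gnmt at 1461 ± 140. Gnmt was second in the other groups, at 1749 ± 147 in EtOH+MBV, 1684 ± 378 in EtOH and 1493 ± 138 in PF. In PF these means differed by less than the SD of Mat1a. Bhmt came next, at 690.0 to 979.0 CPM per kb in group means, and then Ahcy at 553.0 to 867.4. Bhmt exceeded Ahcy by less than its own SD in EtOH and by less than the SD of Ahcy in PF. Cth and Pemt, which changed places between groups, then Cbs and then Mat2a lay between 16.5 and 145.1 CPM per kb. Mtr was the lowest in every group, at 0.562 ± 0.139 in EtOH+MBV, 0.632 ± 0.279 in EtOH, 1.06 ± 0.162 in PF+MBV and 0.908 ± 0.139 in PF. Mtr rested on 39 to 177 counts per library, and the other genes on 1262 (Mat2a) to 238786 (Mat1a). Together the 9 genes took 2.08% to 2.58% of the scaled counts in EtOH+MBV, 1.08% to 2.72% in EtOH, 1.25% to 1.52% in PF+MBV and 1.33% to 2.01% in PF.

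**Figure D1:**
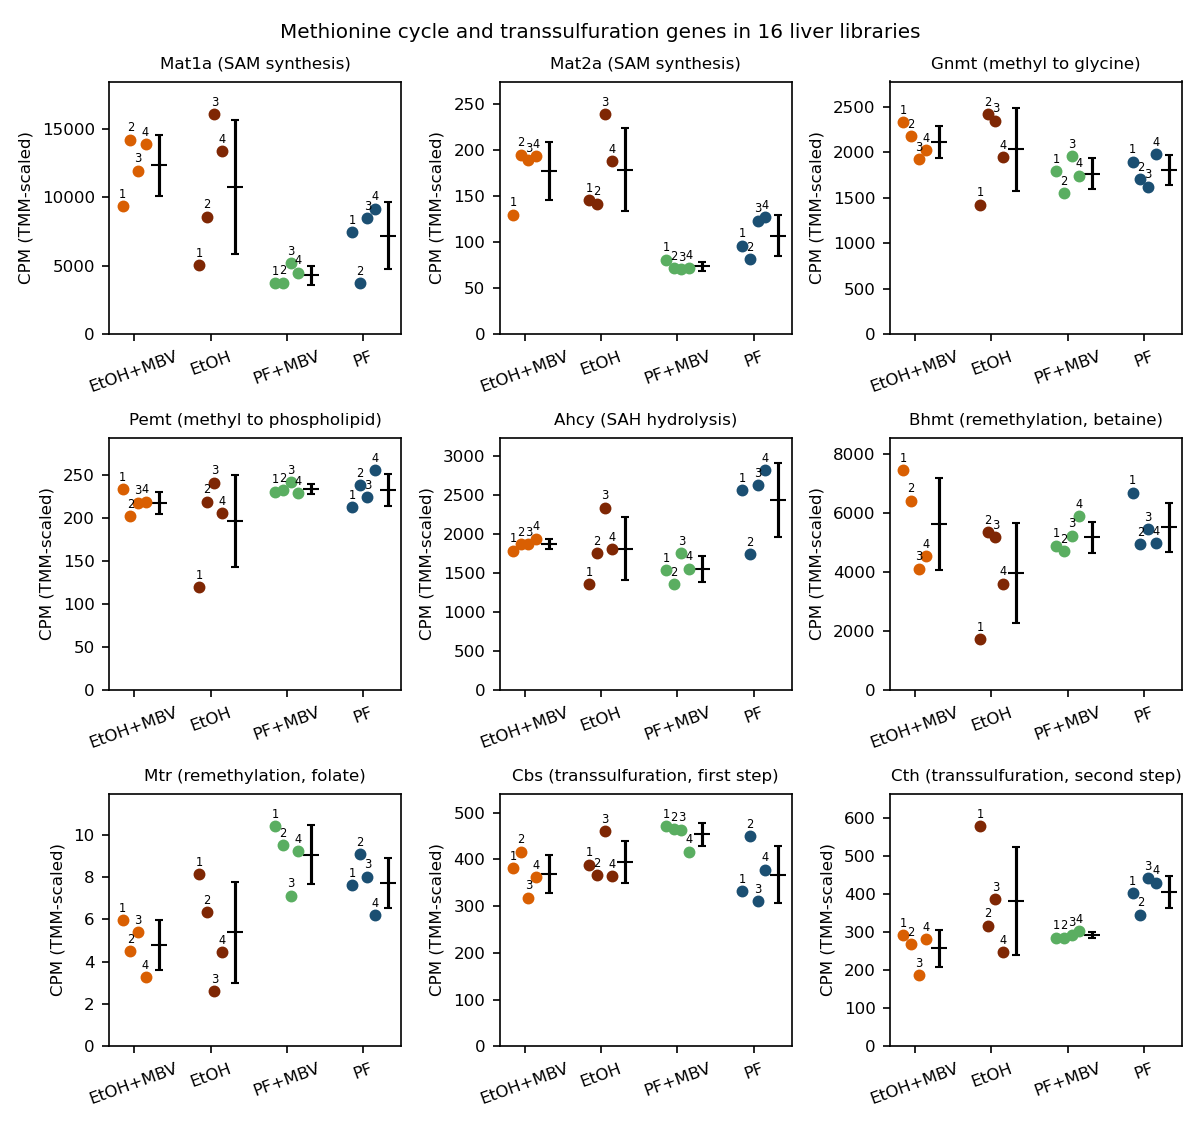
TMM-scaled CPM (linear axes from 0) of the 9 genes in each of the 16 libraries, 1 dot per library with its replicate number, and the group mean with its SD as a bar to the right. Mat1a and Mat2a were higher in all EtOH+MBV libraries than in all PF+MBV libraries, and EtOH 1 held the lowest Gnmt, Pemt and Bhmt levels of the 16.

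The first comparison asked what the ethanol diet did in vehicle-treated livers. Only Mat2a passed the test, and it rose: of the 9 genes 1 was called in EtOH against PF, where 39.8% of all tested genes were called, 20.4% higher and 19.5% lower. Mat1a, the other SAM synthetase, was 1.49-fold higher in the mean without passing. The genes for use of SAM, hydrolysis of SAH, remethylation and transsulfuration gave differences between -0.51 and 0.17 on the log2 scale, none of which passed. The median log2 difference of the 9 genes was -0.09, against 0.01 over all tested genes, and 2 of the 9 had an unadjusted p under 0.05, as did 48.6% of all tested genes.

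Mat2a stood at 146.0, 142.1, 239.0 and 188.6 CPM in the EtOH libraries, against 96.4, 81.4, 123.7 and 127.3 CPM in the PF libraries. Every EtOH library was above every PF library, which held for 1 of the 9 genes and, in either direction, for 32.3% of all tested genes. The fitted rise was 0.74 ± 0.18 on the log2 scale, or 1.67-fold (adjusted p = 0.00417). Mat2a passed under every one of 24 alternatives of library, scaling, filter and test, at log2 values of 0.56 to 0.84.

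Mat1a stood at 5055, 8582, 16030 and 13360 CPM in the EtOH libraries, against 7451, 3736, 8477 and 9157 CPM in the PF libraries. The groups overlapped: EtOH 1 lay below 3 of the PF libraries, and EtOH 3 and EtOH 4 lay above all of them. The difference of 0.58 ± 0.32 (adjusted p = 0.157) did not pass. Without EtOH 1 it was 0.81 (adjusted p = 0.0223), and without both EtOH 1 and EtOH+MBV 1 it was 0.82 (adjusted p = 0.0155).

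Gnmt, the glycine methyltransferase, stood at 1422, 2413, 2346 and 1945 CPM in the EtOH libraries, against 1896, 1704, 1621 and 1979 CPM in the PF libraries. EtOH 1 was the lowest of the 8 libraries and EtOH 2 and EtOH 3 the highest. The difference was 0.17 ± 0.16 (adjusted p = 0.393), and 0.31 (adjusted p = 0.0422) without EtOH 1. Pemt, the phosphatidylethanolamine methyltransferase, stood at 119.6, 219.2, 241.2 and 205.9 CPM in the EtOH libraries, against 213.2, 238.8, 224.6 and 255.5 CPM in the PF libraries. EtOH 1 was the lowest of the 8 libraries, and the difference of -0.25 ± 0.15 (adjusted p = 0.217) did not pass. Without EtOH 1 it was -0.07 (adjusted p = 0.566).

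Ahcy, the SAH hydrolase, stood at 1359, 1754, 2333 and 1800 CPM in the EtOH libraries, against 2558, 1742, 2623 and 2809 CPM in the PF libraries. All EtOH libraries lay below 3 of the PF libraries, and PF 2 lay among the EtOH libraries. The difference of -0.43 ± 0.17 just missed the threshold (adjusted p = 0.0562). It passed at -0.56 without PF 2 (adjusted p = 0.0137), at -0.58 without EtOH 3 (adjusted p = 0.0125), at -0.41 without TMM scaling (adjusted p = 0.0135) and at -0.42 by DESeq2 (adjusted p = 0.0298). Without EtOH 1 it was -0.31 (adjusted p = 0.114).

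Of the remethylation genes, Bhmt stood at 1727, 5365, 5183 and 3618 CPM in the EtOH libraries, against 6699, 4954, 5453 and 4978 CPM in the PF libraries. EtOH 1 was far below the rest, at -1.43 on the log2 scale from the mean of the other EtOH libraries, and the group difference of -0.47 ± 0.28 (adjusted p = 0.189) did not pass. Without EtOH 1 it was -0.23 (adjusted p = 0.379). Mtr, the folate-dependent methionine synthase, stood at 8.13, 6.34, 2.62 and 4.45 CPM in the EtOH libraries, against 7.64, 9.08, 8.03 and 6.21 CPM in the PF libraries. EtOH 1 was again the odd library, here the highest of its group. The difference was -0.51 ± 0.27 (adjusted p = 0.138) with all libraries and -0.78 (adjusted p = 0.0241) without EtOH 1.

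The transsulfuration genes did not pass in either direction. Cbs stood at 389.0, 366.7, 459.9 and 364.7 CPM in the EtOH libraries, against 331.4, 449.7, 311.0 and 378.2 CPM in the PF libraries, with overlapping groups. Its difference of 0.10 had a 95% interval of -0.17 to 0.37. Cth stood at 577.1, 316.5, 386.7 and 246.5 CPM in the EtOH libraries, against 402.6, 345.6, 442.0 and 429.7 CPM in the PF libraries. EtOH 1 was above all PF libraries and 2 EtOH libraries were below all of them, and the difference of -0.09 had a 95% interval of -0.51 to 0.34. Without EtOH 1 it was -0.36 (adjusted p = 0.08).

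Some cell-type markers moved in the same comparison, where 20.4% of all tested genes were called higher and 19.5% lower. The counts of markers are to be read beside these shares. Of 8 pericentral hepatocyte markers 5 fell and 1 rose, and their summed level was 2644 to 11090 CPM in EtOH against 11710 to 15040 CPM in PF. Of 8 general hepatocyte markers 1 rose and none fell, at 87720 to 138100 CPM in EtOH against 93220 to 127500 CPM in PF. Of 7 tested periportal hepatocyte markers 1 rose and 1 fell. The sums of all 8 listed were 5923 to 10020 CPM in EtOH against 7481 to 9069 CPM in PF. Of 7 liver endothelial markers 2 rose and 4 fell, with sums of 296.4 to 343.5 CPM in EtOH against 333.7 to 378.6 CPM in PF. Of 6 stellate cell markers 4 rose and 2 fell, with sums of 204.0 to 304.8 CPM in EtOH against 225.8 to 239.8 CPM in PF. Of 7 tested monocyte and macrophage markers 3 rose and 1 fell, with sums of all 8 listed at 45.53 to 147.9 CPM in EtOH against 56.24 to 78.49 CPM in PF. Of 6 Kupffer cell markers 1 rose and 1 fell, with sums of 129.4 to 415.8 CPM in EtOH against 204.4 to 272.4 CPM in PF. The part of these cell types in the results for the 9 genes was not tested.

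The same question was put to MBV-treated livers, EtOH+MBV against PF+MBV, which share no library with the comparison above. Both SAM synthetase genes rose, Mat1a 2.87-fold and Mat2a 2.39-fold, and Mtr fell by 47.1%. That made 3 of the 9 genes called, where 35.9% of all tested genes were called, 19.2% higher and 16.7% lower. The other 6 genes gave differences between -0.30 and 0.27 that did not pass. The median of the 9 genes was 0.12, against -0.006 over all tested genes. Groups were fully separate for 5 of the 9 genes, Mat1a, Mat2a, Mtr, Cbs and Ahcy, and for 39% of all tested genes.

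Mat1a stood at 9323, 14190, 11930 and 13860 CPM in the EtOH+MBV libraries, against 3736, 3768, 5189 and 4504 CPM in the PF+MBV libraries. The lowest EtOH+MBV library, replicate 1, was still well above the highest PF+MBV library. The rise was 1.52 ± 0.32 on the log2 scale (adjusted p = 0.002). Mat2a stood at 130.1, 195.3, 189.2 and 193.9 CPM in the EtOH+MBV libraries, against 81.2, 71.8, 70.7 and 72.3 CPM in the PF+MBV libraries. Its rise was 1.26 ± 0.18 (adjusted p = 0.000121). Both genes passed under all 24 alternatives, Mat1a at 1.37 to 1.64 and Mat2a at 1.11 to 1.39.

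Mtr stood at 5.98, 4.49, 5.41 and 3.27 CPM in the EtOH+MBV libraries, against 10.4, 9.52, 7.13 and 9.22 CPM in the PF+MBV libraries. All EtOH+MBV libraries were lower, by -0.92 ± 0.27 in the fit (adjusted p = 0.0143). The call rested in part on EtOH+MBV 4: without it the difference was -0.77 (adjusted p = 0.0527).

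Ahcy stood at 1784, 1870, 1866 and 1938 CPM in the EtOH+MBV libraries, against 1538, 1357, 1754 and 1556 CPM in the PF+MBV libraries, all higher, at 0.27 ± 0.17 (adjusted p = 0.236). Cbs stood at 381.4, 416.3, 318.2 and 362.0 CPM in the EtOH+MBV libraries, against 470.4, 464.9, 463.5 and 416.5 CPM in the PF+MBV libraries, all lower, at -0.30 ± 0.13 (adjusted p = 0.0794). Neither passed in the TMM-scaled fit of all 16 libraries, and both passed in a fit of these 8 alone, Ahcy at 0.27 (adjusted p = 0.0393) and Cbs at -0.29 (adjusted p = 0.0319). Cbs also passed in the fit of 16 without TMM scaling, at -0.44 (adjusted p = 0.024). Gnmt at 0.26, Bhmt at 0.12, Pemt at -0.10 and Cth at -0.18 overlapped between the groups, and without EtOH+MBV 1 Bhmt was at -0.04. Their 95% intervals were -0.07 to 0.59 for Gnmt, -0.47 to 0.71 for Bhmt, -0.43 to 0.23 for Pemt and -0.61 to 0.24 for Cth.

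The summed general hepatocyte markers moved in the same direction as the SAM synthetase genes in this comparison, and the summed periportal markers in the other. The counts of markers are to be read beside the 19.2% of all tested genes called higher and the 16.7% called lower. Of the 8 general markers 2 rose and none fell, at log2 differences of -0.285 to 1.023. Their sum was 115900 to 126400 CPM in EtOH+MBV against 88850 to 105000 CPM in PF+MBV. Most of this general sum was Alb, at 62530 to 98070 CPM over all libraries. A measure per 100000 CPM of the general markers was added after the values were seen, and only for the genes called here. As these genes were picked by their call, the measure is a description, and no test was run on it. On it Mat1a stood at 8040 to 11200 in EtOH+MBV against 3780 to 5070 in PF+MBV, a 2.27-fold ratio of means. Mat2a on the same measure stood at 112 to 163 in EtOH+MBV against 67.3 to 89.4 in PF+MBV, a 1.89-fold ratio. Mtr stood at 2.63 to 5.16 in EtOH+MBV against 6.79 to 11.5 in PF+MBV, a ratio of means of 0.419. Of the 8 pericentral markers 1 rose and 1 fell, with sums of 9892 to 11140 CPM in EtOH+MBV against 10650 to 12730 CPM in PF+MBV. Of 7 tested periportal hepatocyte markers 1 rose and 1 fell. The sums of all 8 listed were 5532 to 7844 CPM in EtOH+MBV against 8464 to 10200 CPM in PF+MBV. Of 7 liver endothelial markers 1 rose and 4 fell, with sums of 289.2 to 377.7 CPM in EtOH+MBV against 350.9 to 372.6 CPM in PF+MBV. Of 7 tested monocyte and macrophage markers 1 rose and 3 fell, with sums of all 8 listed at 40.84 to 58.53 CPM in EtOH+MBV against 62.48 to 68.19 CPM in PF+MBV. Markers of Kupffer cells and of stellate cells fell in 2 of 6 cases each and rose in none. Their sums were 140.1 to 218.0 CPM in EtOH+MBV against 209.8 to 269.9 CPM in PF+MBV for Kupffer cells, and 193.9 to 255.4 CPM in EtOH+MBV against 238.1 to 272.6 CPM in PF+MBV for stellate cells. The part of these cell types in the results for the 9 genes was not tested.

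**Figure D2:**
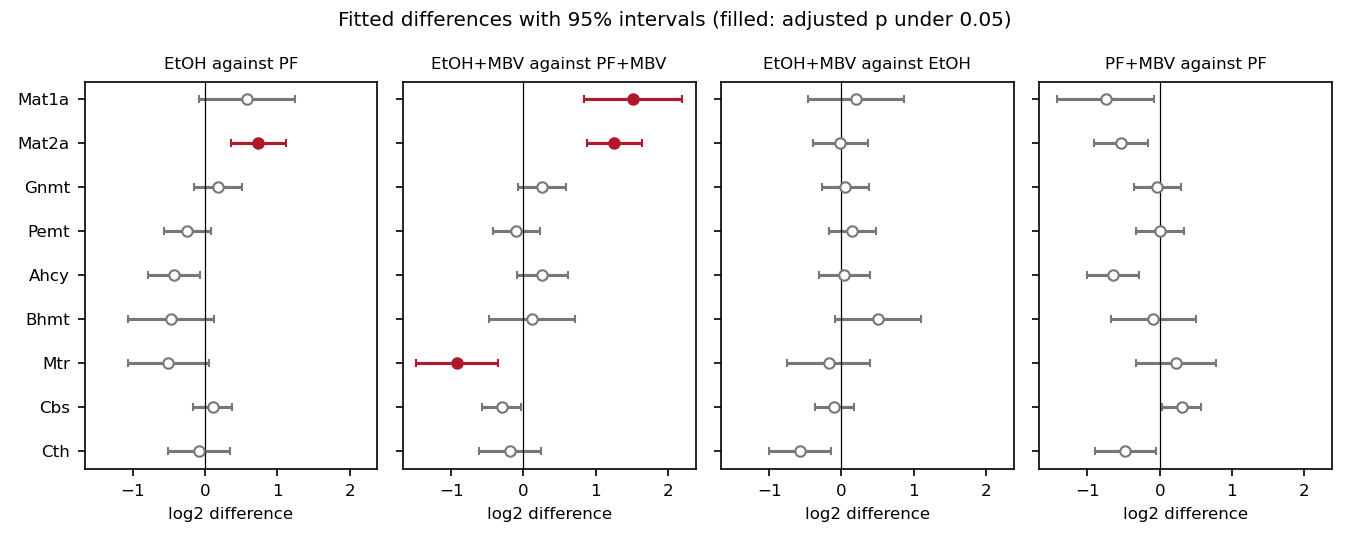
Fitted log2 differences of the 9 genes (x axis) with 95% intervals in the 4 comparisons, filled red where the adjusted p was under 0.05. Mat2a was called in both comparisons of diets, Mat1a and Mtr in EtOH+MBV against PF+MBV, and no gene in either comparison of MBV with vehicle.

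MBV was compared with vehicle within the ethanol diet. None of the 9 genes passed in EtOH+MBV against EtOH, where 2.69% of all tested genes were called, and DESeq2 and limma voom called none of the 9 either. At an unadjusted p under 0.05 there was 1 gene, Cth, and 21.1% of all tested genes. No gene had separate groups, which 7.6% of all tested genes had. The median of the 9 genes was 0.04, against 0.006 over all tested genes.

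Cth stood at 292.5, 267.4, 187.1 and 281.5 CPM in the EtOH+MBV libraries, against 577.1, 316.5, 386.7 and 246.5 CPM in the EtOH libraries. EtOH 4 was the only EtOH library below any EtOH+MBV library. The difference was -0.57 ± 0.20 (adjusted p = 0.121), -0.73 without EtOH 4 (adjusted p = 0.0251) and -0.29 without EtOH 1 (adjusted p = 0.367). Bhmt stood at 7452, 6428, 4121 and 4548 CPM in the EtOH+MBV libraries, against 1727, 5365, 5183 and 3618 CPM in the EtOH libraries. Its difference of 0.50 had a 95% interval of -0.09 to 1.10, and was 0.26 without EtOH 1 and 0.09 without both EtOH 1 and EtOH+MBV 1. For the SAM synthetase genes the group means lay close, at 12330 ± 2240 CPM in EtOH+MBV and 10760 ± 4890 CPM in EtOH for Mat1a, and at 177.1 ± 31.4 CPM in EtOH+MBV and 178.9 ± 45.3 CPM in EtOH for Mat2a (SD, n = 4 each). The intervals of their log2 differences, -0.47 to 0.86 for Mat1a and -0.39 to 0.36 for Mat2a, leave room for changes of either sign. Of 6 cycling-cell markers 3 fell in this comparison, where 2.69% of all tested genes were called. The sums of these markers were 14.3 to 24.5 CPM in EtOH+MBV against 16.45 to 113.8 CPM in EtOH, the highest being EtOH 1. The part of cycling cells was not tested.

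Within pair-feeding, too, no member passed the test in PF+MBV against PF, where 1.78% of all tested genes were called. By DESeq2 1 of the 9 passed (Ahcy) and by limma voom none, while 5 of the 9 had an unadjusted p under 0.05, as did 16.9% of all tested genes. Mat2a and Cth had separate groups, both lower, as did 15% of all tested genes in either direction. The median of the 9 genes was -0.09, against 0.004 over all tested genes.

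Ahcy stood at 1538, 1357, 1754 and 1556 CPM in the PF+MBV libraries, against 2558, 1742, 2623 and 2809 CPM in the PF libraries. Only PF 2 reached down to the PF+MBV range. The difference of -0.65 ± 0.17 (adjusted p = 0.0639) passed without PF 2 at -0.78 (adjusted p = 0.0126), without EtOH 1 at -0.65 (adjusted p = 0.0183), without EtOH 3 at -0.66 (adjusted p = 0.0399), without TMM scaling at -0.58 (adjusted p = 0.0281) and by DESeq2 at -0.65 (adjusted p = 0.00488). The EtOH libraries enter through the shared estimate of spread.

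Mat1a stood at 3736, 3768, 5189 and 4504 CPM in the PF+MBV libraries, against 7451, 3736, 8477 and 9157 CPM in the PF libraries. PF 2 equalled the lowest PF+MBV library and the other PF libraries were above all of them. The difference was -0.75 ± 0.32 (adjusted p = 0.239). Mat2a stood at 81.2, 71.8, 70.7 and 72.3 CPM in the PF+MBV libraries, against 96.4, 81.4, 123.7 and 127.3 CPM in the PF libraries. All PF+MBV libraries were lower, PF+MBV 1 and PF 2 only narrowly so, at -0.54 ± 0.18 (adjusted p = 0.131).

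Cth was even across the PF+MBV libraries, at 285.3, 285.6, 292.7 and 302.5 CPM, against 402.6, 345.6, 442.0 and 429.7 CPM in the PF libraries. The difference was -0.47 ± 0.20 (adjusted p = 0.238). In a fit of these 8 libraries alone, Ahcy at -0.65 (adjusted p = 0.0181), Mat2a at -0.54 (adjusted p = 0.029) and Cth at -0.47 (adjusted p = 0.00889) passed. The same 3 genes passed in the fit without EtOH 1 and EtOH+MBV 1, and Mat2a passed without PF 2 at -0.65 (adjusted p = 0.049). Cbs went the other way, at 470.4, 464.9, 463.5 and 416.5 CPM in the PF+MBV libraries against 331.4, 449.7, 311.0 and 378.2 CPM in the PF libraries, a difference of 0.30 ± 0.13 (adjusted p = 0.232). Gnmt, Pemt, Bhmt and Mtr lay between -0.09 and 0.23.

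The difference between the MBV effects on the 2 diets was tested as an interaction, EtOH+MBV minus EtOH less PF+MBV minus PF. It passed for none of the 9 genes, where 4.11% of all tested genes were called. There were 2 genes with an unadjusted p under 0.05, Ahcy at 0.69 ± 0.24 (adjusted p = 0.104) and Cbs at -0.40 ± 0.18 (adjusted p = 0.195), where 23.3% of all tested genes had one. Ahcy passed by DESeq2 at 0.69 (adjusted p = 0.0405), without PF 2 at 0.82 (adjusted p = 0.039) and without EtOH 3 at 0.85 (adjusted p = 0.0406), and limma voom called none. Mat1a at 0.94, with a 95% interval of -0.004 to 1.89, and Mat2a at 0.52, with an interval of -0.01 to 1.06, did not pass. That both genes differed more between diets with MBV than with vehicle was therefore not established.

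The ratio of Mat1a to Mat2a counts sets the liver form against the form of other cells within a library, free of library scaling. It was 71.6, 72.7, 63.0 and 71.4 in the EtOH+MBV libraries, 34.6, 60.4, 67.1 and 70.8 in the EtOH libraries, 46.0, 52.5, 73.4 and 62.3 in the PF+MBV libraries, and 77.3, 45.9, 68.5 and 71.9 in the PF libraries. All 4 groups overlapped, and the lowest value of the 16 was that of EtOH 1. The mean log2 ratio differed by -0.20 in EtOH against PF, 0.27 in EtOH+MBV against PF+MBV, 0.31 in EtOH+MBV against EtOH, and -0.17 between PF+MBV and PF. In exact permutation tests (2-sided, 4 libraries a side), which can give no p below 0.0286, these had p = 0.486, p = 0.2, p = 0.171 and p = 0.486 in that order. Adjusted over the 4 tests, p was 0.4 to 0.486 in these exact tests. Without EtOH 1 the difference in EtOH against PF turned to 0.03.

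**Figure D3:**
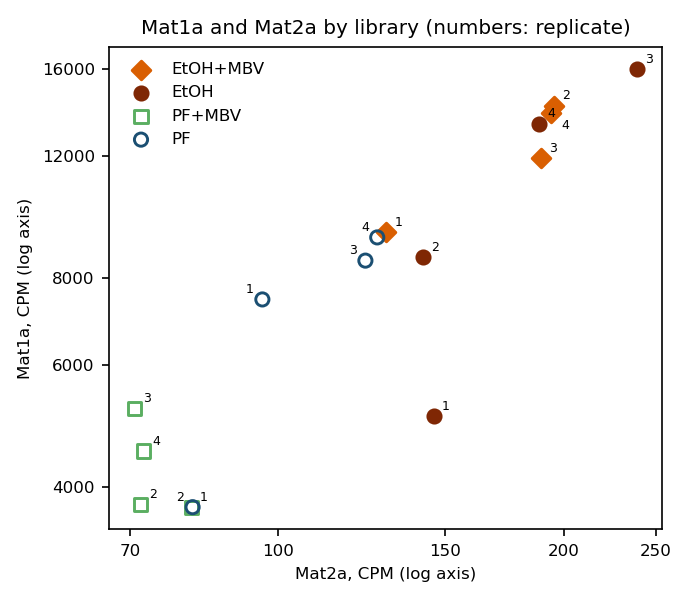
Mat1a against Mat2a level in each library (TMM-scaled CPM, log axes), with replicate numbers. The EtOH+MBV and EtOH libraries lie at 130.1 to 239.0 CPM of Mat2a and the PF+MBV and PF libraries at 70.7 to 127.3 CPM, and the markers of PF+MBV 1 and PF 2 coincide at 3736 CPM of Mat1a.

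The likeness of 2 genes across the 16 libraries was measured as the root-mean-square difference of their log2 CPM after each was centred on its own mean, so that 0 means equal fold differences everywhere. It is a description, over libraries that share diets and depth. Among the 9 genes, Gnmt and Pemt were closest at 0.237, and Mat1a and Mat2a stood at 0.312. Mat1a and Mtr were farthest apart at 1.23. Of 7563 other genes with a mean of at least 10 CPM, Slc25a51 (0.179) and Sult1d1 (0.200) were nearest to Mat1a, against a median of 0.743 over these genes. Gjb2 (0.166) and Picalm (0.172) were nearest to Mat2a, against a median of 0.609. Tdrd7 (0.214) and Ppp2r3a (0.217) were nearest to Mtr, and Cyp2f2 (0.184) and Prodh (0.193) to Bhmt. Ddx5 (0.139) and Atp6v0a2 (0.140) were nearest to Ahcy, and Pogk (0.209) and Nt5c3 (0.222) to Cth. The remaining 3 genes varied least, and their nearest genes were Fau and Dhrs7 for Gnmt, Ubxn1 and Canx for Cbs, and Sod1 and Gchfr for Pemt, at 0.081 to 0.118.

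Around these enzymes, 65 genes in 8 lists of neighbouring pathways were followed, of which 59 were tested. In EtOH against PF, 9 rose and 19 fell, with a median of -0.21 on the log2 scale against 0.01 over all tested genes. In EtOH+MBV against PF+MBV, 8 rose and 13 fell, with a median of -0.09. Of all tested genes, 39.8% were called in the first of these, 20.4% higher and 19.5% lower. In the second 35.9% were called, 19.2% higher and 16.7% lower. The counts per list given below are to be read beside these shares. In MBV against vehicle within pair-feeding, 1 of the 59 was called, a share like the 1.78% of all tested genes. Within the ethanol diet edgeR called none of the 59, where 2.69% of all tested genes were called. There 9 had an unadjusted p under 0.05, a smaller share than the 21.1% of all tested genes. Amd1 and Pnmt were at 0 in all 16 libraries, and Oaz1, Ggt1, Slc7a11 and Chkb did not pass the filter on low counts.

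**Figure D4:**
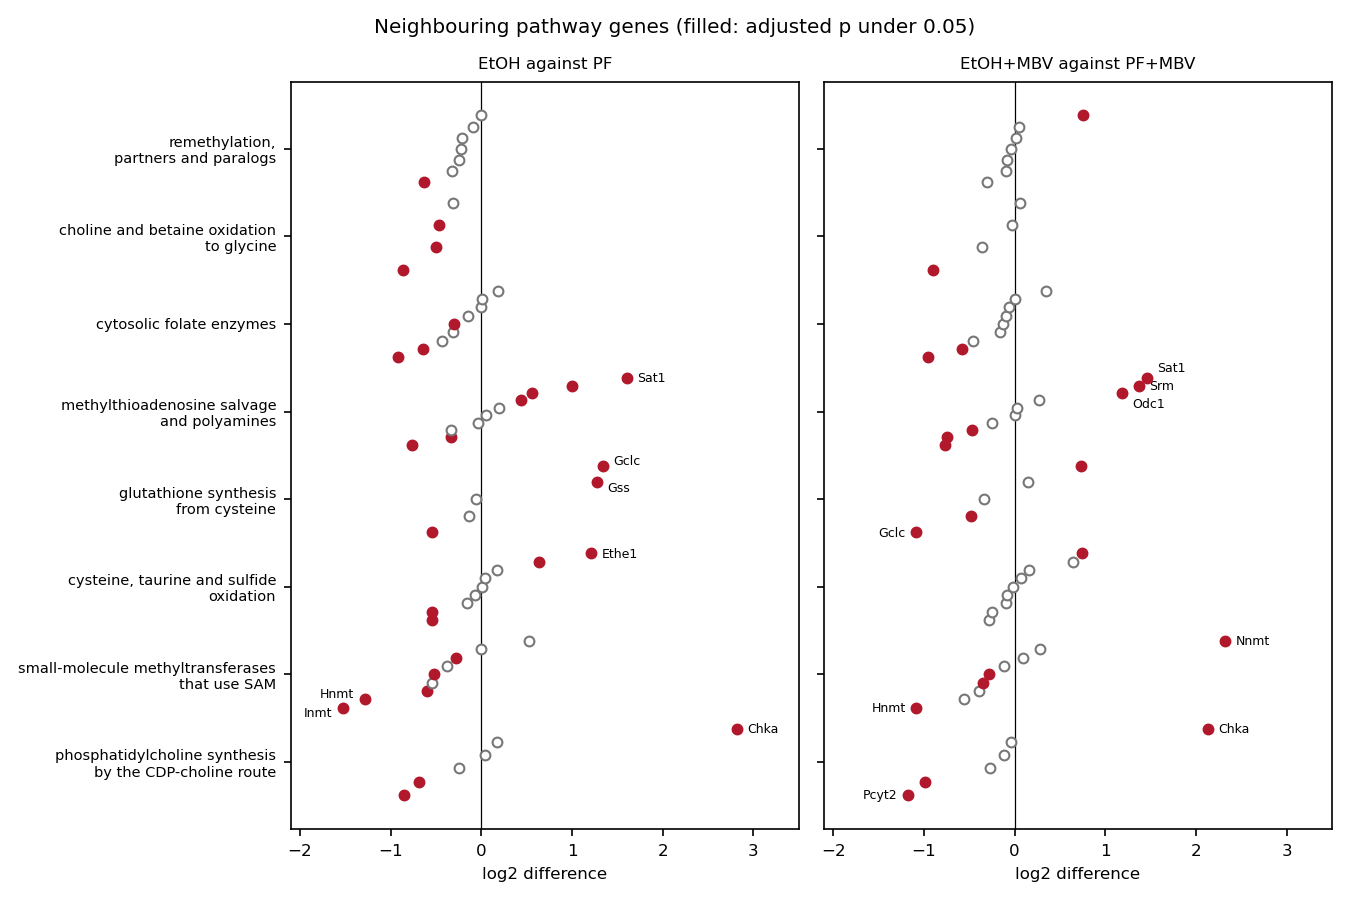
Log2 differences (x axis) of the 59 tested neighbouring pathway genes by list, in EtOH against PF (left) and EtOH+MBV against PF+MBV (right), filled where the adjusted p was under 0.05 and named where such a difference exceeded 1 in size. Chka was the highest of these genes on the left, at 2.82, and Gclc was called higher on the left and lower on the right.

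Of 7 partners and paralogs of the remethylation enzymes, 1 fell and none rose in EtOH against PF. Ahcyl2, a paralog of Ahcy, fell by 0.63 on the log2 scale (adjusted p = 0.000418). In EtOH+MBV against PF+MBV 1 of the 7 rose, Mtrr by 0.75 (adjusted p = 0.00223). Mtrr is the reductase that restores Mtr to its active form, and stood at 13.2 ± 1.4 CPM in EtOH+MBV against 7.84 ± 0.986 CPM in PF+MBV (SD, n = 4 each).

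Of 4 genes of choline and betaine oxidation, which supplies betaine to Bhmt and breaks down what Bhmt leaves of it, 3 fell in EtOH against PF. Chdh, the choline dehydrogenase, fell by 0.86 (adjusted p = 0.00114), Sardh, the sarcosine dehydrogenase, by 0.50 (adjusted p = 0.026) and Pipox by 0.46 (adjusted p = 0.0235). Chdh stood at 130.6 ± 21.9 CPM in EtOH against 237.5 ± 31.9 CPM in PF (SD, n = 4 each). With MBV on both diets, Chdh alone fell, by 0.90 (adjusted p = 0.00107). The median of this list in EtOH against PF was -0.48.

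Of 9 cytosolic folate enzymes, 3 fell and none rose in EtOH against PF. Shmt1, which moves a carbon from serine to folate, stood at 69.0 to 116.2 CPM in EtOH against 170.7 to 203.7 CPM in PF, and fell by 0.91 (adjusted p = 0.0016). Fpgs, which adds glutamates to folate, fell by 0.64 (adjusted p = 0.026) and Ftcd, of histidine breakdown, by 0.30 (adjusted p = 0.0278). Between EtOH+MBV and PF+MBV 2 of the 9 fell, Shmt1 by 0.95 (adjusted p = 0.00142) and Mthfs by 0.58 (adjusted p = 0.00778). Shmt1 stood at 164.7, 86.1, 88.7 and 87.3 CPM in the EtOH+MBV libraries, replicate 1 being closest to the PF+MBV range of 192.0 to 222.8 CPM.

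Of 10 tested genes of methylthioadenosine salvage and polyamines, a branch that leaves the cycle at SAM, 4 rose and 2 fell in EtOH against PF. Sat1, which acetylates polyamines for export and breakdown, rose by 1.60 (adjusted p = 0.001), Odc1, which makes putrescine, by 1.00 (adjusted p = 3.77e-05) and Mri1, of methionine salvage, by 0.44 (adjusted p = 0.015). Azin1, an antizyme inhibitor, fell by 0.76 (adjusted p = 0.000762). In EtOH+MBV against PF+MBV 3 rose and 3 fell. Sat1 rose by 1.46 (adjusted p = 0.00244), Srm, the spermidine synthase, by 1.37 (adjusted p = 8.74e-05) and Odc1 by 1.18 (adjusted p = 2.04e-05). Adi1, of methionine salvage, fell by 0.75 (adjusted p = 0.000529) and Azin1 by 0.47 (adjusted p = 0.0198). Srm and Adi1 were also called in EtOH against PF, Srm at 0.56 (adjusted p = 0.0236) and Adi1 at -0.34 (adjusted p = 0.0497).

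Of 5 tested genes of glutathione synthesis, which draws on the cysteine made by Cth, 2 rose and 1 fell in EtOH against PF. Gss, the glutathione synthetase, rose by 1.27 (adjusted p = 4.06e-06), Gclc, the catalytic chain of glutamate-cysteine ligase, rose by 1.34 (adjusted p = 0.000668), and Oplah, the oxoprolinase, fell by 0.54 (adjusted p = 0.026). Gclc stood at 132.4, 249.2, 187.4 and 163.8 CPM in the EtOH+MBV libraries, 455.5, 380.2, 280.7 and 266.1 CPM in the EtOH libraries, 503.5, 348.4, 315.5 and 391.5 CPM in the PF+MBV libraries, and 104.3, 212.0, 124.0 and 107.1 CPM in the PF libraries. The EtOH and PF+MBV libraries were all above the EtOH+MBV and PF libraries. Gclc rose by 1.51 ± 0.25 in PF+MBV against PF (adjusted p = 0.00906), as the gene of the 59 called there. It fell by 1.09 in EtOH+MBV against PF+MBV (adjusted p = 0.00342), where Gclm, the modifier chain, fell by 0.48 (adjusted p = 0.00474) and Gss rose by 0.73 (adjusted p = 0.000542).

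Of 9 genes of cysteine, taurine and sulfide oxidation, 2 rose and 2 fell in EtOH against PF. Ethe1, a persulfide dioxygenase, rose by 1.21 (adjusted p = 0.000487) and Cdo1, the cysteine dioxygenase that opens taurine synthesis, by 0.64 (adjusted p = 0.0332), while Tst fell by 0.55 (adjusted p = 0.00391) and Mpst by 0.54 (adjusted p = 0.0229). Both encode sulfur transferases. With MBV on both diets, Cdo1 alone passed, with a rise of 0.75 (adjusted p = 0.0166).

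Of 9 tested methyltransferases that use SAM on small molecules, 5 fell and none rose in EtOH against PF, with a median of -0.52. Hnmt, which inactivates histamine, fell by 1.28 (adjusted p = 1.59e-05), Inmt by 1.53 (adjusted p = 0.00751), Coq5, of ubiquinone synthesis, by 0.60 (adjusted p = 0.00261) and Tpmt by 0.52 (adjusted p = 0.000667). In EtOH+MBV against PF+MBV 3 fell and 1 rose. Hnmt fell by 1.08 (adjusted p = 0.000113), Tpmt by 0.34 (adjusted p = 0.0127) and Icmt, whose substrates are prenylated proteins, by 0.29 (adjusted p = 0.0156). Icmt was also called in EtOH against PF, at -0.275 (adjusted p = 0.0175). Nnmt, the nicotinamide methyltransferase, rose by 2.32 (adjusted p = 0.000914), at 182.9, 437.0, 352.4 and 440.1 CPM in the EtOH+MBV libraries against 62.2, 59.2, 83.3 and 78.3 CPM in the PF+MBV libraries.

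Of 6 tested genes listed around the CDP-choline route to phosphatidylcholine, the alternative to Pemt, 1 rose and 2 fell in each comparison of diets. The falls were not of genes of that route. Chka, a choline kinase, rose by 2.82 ± 0.52 in EtOH against PF (adjusted p = 0.000584), at 94.5 to 200.8 CPM in EtOH against 16.9 to 26.6 CPM in PF. It rose by 2.14 ± 0.50 in EtOH+MBV against PF+MBV (adjusted p = 0.00403), although EtOH+MBV 1, at 29.8 CPM, lay below all PF+MBV libraries. The value without EtOH+MBV 4, which stood at 444.7 CPM, was 1.49. The genes that fell, Pcyt2 and Ept1, act in the sister route, from ethanolamine to phosphatidylethanolamine. Pcyt1a, Chpt1 and Cept1 were not called in either comparison of diets. Pcyt2 fell by 0.85 in EtOH against PF (adjusted p = 0.000244) and by 1.17 in EtOH+MBV against PF+MBV (adjusted p = 3.61e-05). Ept1 fell by 0.69 in EtOH against PF (adjusted p = 0.000828) and by 0.99 in EtOH+MBV against PF+MBV (adjusted p = 7.4e-05).

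Some of these calls on neighbouring genes were lost when a library was left out or the processing was changed. In EtOH against PF, 8 of the 25 calls followed were lost when a particular library was left out. Cdo1 was lost without PF 1, PF 2, PF 3, EtOH 3 or EtOH 4 (0.45 to 0.65), Mri1 without PF 3 or EtOH 1 (0.34 to 0.38) and Mpst without PF 2 (-0.47). Fpgs was lost without PF 3, PF 4 or EtOH 2 (-0.62 to -0.58), Ftcd without PF 2 or EtOH 3 (-0.28 to -0.26) and Oplah without PF 1, PF 3 or EtOH 2 (-0.53 to -0.52). Sardh (-0.48 to -0.45) and Pipox (-0.45) were each lost without PF 1 or EtOH 4. All 8 were also lost in a fit of the 8 libraries of the comparison alone, Ftcd and Mri1 also without TMM scaling, and Ftcd without the filter on low counts. Of the 19 calls followed in EtOH+MBV against PF+MBV, 2 were lost in this way. They were Cdo1 without PF+MBV 2 (0.69) and Icmt without EtOH+MBV 2, EtOH+MBV 4 or PF+MBV 3 (-0.27 to -0.25).

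Near-identical sequences bear on 3 of the 9 genes, since reads that match more than 1 place may be lost or misplaced. The transcript of Ahcy matched the gene model Gm4737 at 99.7% over 2083 bases, and Gm4737 itself held 337 to 645 counts per library against 25099 to 52616 for Ahcy. The transcript of Bhmt matched Gm5096 at 99.4% over 1869 bases, a model with no row in the tables. The transcript of Mat2a matched Gm9523 at 95.2% over 1065 bases. Mat2a also shares 508 exonic bases with overlapping genes on either strand, of which 1 lies on the opposite strand, and the libraries are not strand-specific. Particl, which matches Mat2a over 211 bases, held 4 to 24 counts against 1262 to 3561 for Mat2a. Bhmt shares 187 exonic bases with overlapping genes on either strand, of which 1 lies on the opposite strand. No other gene matched Mat1a, Gnmt, Mtr, Cth or Pemt at 90% over 200 bases, and Cbs matched others over at most 422 bases.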

How the data were processed

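Each deposited table holds the authors' counts of reads per gene for 1 library, with no normalization. Trimmomatic, STAR and mm10 are named in the submitters' processing notes, and which versions, settings and annotation is not given in the sources used here. Of its count columns the unstranded was taken, as reads fell evenly on both strands (50.58% to 51.79% on the first), and 4 categories that are not genes were left out, reads without a feature being 9.397% to 10.87% of a library. Genes were kept by filterByExpr (minimum count 10) and scaled by TMM, and group means over all 16 libraries were fitted with edgeR 4.0.16 (quasi-likelihood test, R 4.3.3). Benjamini-Hochberg adjustment ran over the 12901 tested genes of each comparison, at 0.05. Errors of log2 differences are standard errors, and those of levels are SD. Log2 CPM used a prior count of 2, and the Mat1a to Mat2a ratio a pseudocount of 0.5. The 4 comparisons share groups or the estimate of spread with each other, so they are not independent.

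Alternatives were DESeq2 1.42.0, limma voom 3.58.1, other scalings, no filter, a replicate block and libraries left out. The genes, lists and tests were chosen with earlier results of these data known. Some genes of the neighbouring lists are not reported here and enter no list count. All 9 genes are named, with up to 4 called genes per neighbouring list and comparison by smallest p, and the 2 nearest genes in pattern. Srm, Adi1, Azin1 and Icmt are also given in the comparison of diets where they ranked below those 4. Their calls there were not followed over the alternatives. Coordinates and exonic lengths are from a GENCODE annotation of GRCm38, and promoters from RefSeq. The fit was tested on simulated data. No 2 libraries of a group agreed within sampling noise (chi-square per degree of freedom at least 8.72). Counting error covers reads, not molecules.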

Additional observations from a re-analysis of the deposited data

Results flagged for a closer look

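A sample far from the others of its group was found in 4 of 40 groups of values tested, where chance gives about 1 in 20. Mat2a stood at 130.1 CPM in EtOH+MBV 1, with the rest of that group at 189.2 to 195.3 CPM. Mat2a stood at 81.18 CPM in PF+MBV 1, with the rest of that group at 70.69 to 72.3 CPM. Cbs stood at 416.5 CPM in PF+MBV 4, with the rest of that group at 463.5 to 470.4 CPM. The Mat1a to Mat2a ratio was 63.04 in EtOH+MBV 3, with the rest of that group at 71.43 to 72.68.

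The effect of MBV differed between the diets, by the interaction in edgeR's fit, for 2 of the 59 neighbouring pathway genes, a share not above the 4.11% of all tested genes. For Gclc the effect with ethanol minus that with pair-feeding was -2.43 ± 0.36 on the log2 scale (adjusted p = 0.00468). Gclc was lower in 4 of 4 EtOH+MBV libraries than in every EtOH library, and higher in 4 of 4 PF+MBV libraries than in every PF library. For Ethe1 the difference of effects was -1.23 ± 0.31 (adjusted p = 0.0368). Its call was lost when any of 10 libraries was left out, PF 1, PF 3, PF 4, EtOH 2, EtOH+MBV 3, EtOH+MBV 4 or any PF+MBV library, at -1.31 to -1.06 (adjusted p = 0.0507 to 0.0801).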

How the results depend on the processing

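Mat2a in EtOH against PF and Mat1a and Mat2a in EtOH+MBV against PF+MBV kept direction and call in all 24 alternatives, and the fall of Mtr in EtOH+MBV against PF+MBV lost its call in 1. No called difference of the 9 genes changed sign. The number of the 9 genes called in EtOH against PF was 1, and it was 2 without TMM scaling, with the replicate block and by DESeq2, 4 without EtOH 1 and EtOH+MBV 1, and 1 to 4 with a library left out. In EtOH+MBV against PF+MBV it was 3, and it was 4 without TMM scaling, 5 in the fit of the 8 libraries alone, and 2 to 3 with a library left out. In PF+MBV against PF it was 0, and it was 1 without TMM and by DESeq2, 3 in the fit of 8 libraries and without both replicate 1 libraries, and 0 to 2 with a library left out. In EtOH+MBV against EtOH and in the interaction it was 0, with 0 to 1 when a library was left out, and 1 by DESeq2 in the interaction. The cause of these changes was not tested.

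Over all genes, 347 were called in EtOH+MBV against EtOH, against 196 without TMM, 205 with the replicate block, 905 by DESeq2, 0 in the fit of 8 libraries and 180 without both replicate 1 libraries, and 8 (without EtOH+MBV 3) to 1169 (without EtOH 4) with a library left out. PF+MBV against PF gave 230, against 665 by DESeq2, 1119 in the fit of 8 libraries and 1022 without both replicate 1 libraries, and 45 (without PF 1) to 689 (without PF 2) with a library left out. The interaction gave 530, against 349 without TMM, 1113 by DESeq2 and 887 without both replicate 1 libraries, and 168 (without PF 1) to 1088 (without EtOH 4) with a library left out.

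Values that changed sign were all uncalled. Without TMM, which moved the median of all genes to -0.11 in EtOH+MBV against EtOH, -0.15 in EtOH+MBV against PF+MBV and -0.18 in the interaction, these were Cth in EtOH against PF (0.013), Gnmt (-0.03) and Ahcy (-0.045) in EtOH+MBV against EtOH, Gnmt in PF+MBV against PF (0.034), Bhmt in EtOH+MBV against PF+MBV (-0.016) and Gnmt in the interaction (-0.064). Without both replicate 1 libraries they were Mat2a (0.02), Gnmt (-0.134), Ahcy (-0.055) and Pemt (-0.061) in EtOH+MBV against EtOH, Pemt in PF+MBV against PF (-8e-05), Bhmt in EtOH+MBV against PF+MBV (-0.032), and Gnmt (-0.099), Cth (0.109) and Pemt (-0.061) in the interaction. With libraries left out, values ranged in EtOH+MBV against EtOH from -0.03 to 0.461 for Mat1a, -0.11 to 0.165 for Mat2a, -0.134 to 0.147 for Gnmt, -0.066 to 0.195 for Ahcy, -0.392 to 0.101 for Mtr and -0.061 to 0.274 for Pemt. In PF+MBV against PF they ranged from -0.088 to 0.026 for Gnmt, -0.156 to 0.008 for Bhmt and -0.046 to 0.044 for Pemt. Cth in EtOH against PF ranged from -0.355 to 0.074 and Bhmt in EtOH+MBV against PF+MBV from -0.044 to 0.25. In the interaction Gnmt ranged from -0.099 to 0.179, Cth from -0.256 to 0.182 and Pemt from -0.061 to 0.279. The Mat1a to Mat2a log2 ratio in EtOH against PF ranged from -0.369 to 0.029. In EtOH+MBV against PF+MBV it ranged from 0.163 to 0.388 with a library left out. The lowest adjusted p of the exact permutation tests there was 0.114. A test of that ratio by pairs cannot pass the threshold.

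With the replicate number as a block, Ahcy in EtOH against PF gained a call (-0.43, adjusted p = 0.0485), Mat2a in EtOH+MBV against EtOH was 0.003, and no other call of the 9 genes changed. No pairing of samples by number was seen. Libraries with the same number correlated at -0.088 to 0.155 in their deviations from group means. At most 1 of 4 matched its own number best. So few correlations cannot exclude a weak pairing. Low counts (39 to 177 per library) limit Mtr.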
